A study of Mus musculus with 4 samples.

Results

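The genes described here are 36 mouse genes that mark macrophages or serve their work, from the F4/80 antigen gene Adgre1 and the growth factor receptor gene Csf1r to scavenger receptors, Fc receptors and genes of lipid handling. They were chosen by symbol and not by a cut on measured values, although earlier results of these data were known. All 36 were on the array, through 57 probe sets that name 1 gene, of 18193 genes and 45037 probe sets in all. In 23 of them a single probe set carries the gene, and in 13 there are several. A further probe set, which names both Chil3 and Chil4, was left out.

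Macrophages are phagocytes that engulf microbes, dying cells and debris. In the small intestine they are renewed from blood monocytes, survive on signals through the receptor CSF1R, and are kept in a tolerant state beside the resident bacteria. In the Peyer's patch, the lymphoid follicles of the gut wall, macrophages and dendritic cells lie beneath the follicle epithelium and between B and T cell areas, where they take up particles and dead lymphocytes.

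The study asked what a Lactobacillus strain tied to the antibacterial lectin REG3γ does to gut macrophages. For the arrays, germ-free (GF) C57BL/6 mice were monocolonized with Lactobacillus NK318.1 and sampled 2 weeks later. Peyer's patch cells and intestinal epithelial cells were taken from these NK318.1 mice and from GF mice that received no bacteria. The labels give isolators as the housing, and GF controls were kept apart from the colonized mice. No group had a full microbiota. The 4 arrays were 1 each for NK318.1 Peyer's patch, GF Peyer's patch, NK318.1 epithelial cells and GF epithelial cells. The title of the NK318.1 epithelial sample gives the strain only as NK318, and its other labels name NK318.1. Each array held RNA pooled from several mice according to the legend of the array experiment. Mice of the transplant experiments were 4 weeks old when taken from the isolator and dosed by mouth, and the age of the array mice in particular is not stated. Neither tissue was sorted for macrophages, so fewer macrophages and less RNA per macrophage cannot be told apart in any value below.

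No group had a replicate array, so no value carries an error between mice and no test was possible. Each value is a linear signal intensity, and each comparison is the log2 ratio of 2 arrays, in which 1 unit is a 2-fold difference. Signals under a floor of 15.5 were raised to it, and a gene was taken as measured in a comparison where at least 1 of the arrays exceeded it. Where 1 of the 2 arrays lay under the floor, the ratio is a lower bound. The methods of the study call a gene at 2-fold with an adjusted p-value, and with 1 array per group the 2-fold limit was used alone. Levels of different genes were not compared, because probe sets differ in brightness. Where the signals of a list are summed, the sums are compared between arrays only, and the brightest probe sets weigh most in them. Where a gene had several probe sets, the values are those of the one brightest over the 4 arrays. Where NK318.1 and GF mice are compared, the ratios of the other measured probe sets are given beside it for each gene named with a ratio.

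The 4 arrays had median signals between 23.0 and 23.3, and 59.1% to 61.0% of probe sets lay above the floor. β-actin, whose 3′ signal exceeds its 5′ signal when RNA is degraded, had a 3′/5′ ratio of 1.74 in NK318.1 and 1.60 in GF Peyer's patch, but 4.10 in NK318.1 and 2.73 in GF epithelial cells. The tissues matched their labels. All 15 epithelial markers on the array had at least 2-fold less signal in Peyer's patch than in epithelial cells in both groups of mice. All 13 B cell markers had at least 2-fold more in Peyer's patch of GF mice, and 12 did so in NK318.1 mice. The sex of the pools differed with colonization. The X-inactivation transcript Xist had 4586 in NK318.1 and 21.7 in GF Peyer's patch, and 4889 in NK318.1 and 46.7 in GF epithelial cells. The Y-linked Eif2s3y lay under the floor in both NK318.1 pools, against 300.1 in GF Peyer's patch and 147 in GF epithelial cells, and Kdm5d lay under it likewise, against 165 and 90.7 in the GF pools. Sex and colonization therefore cannot be told apart in any comparison of NK318.1 with GF mice.

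**Figure D1:**
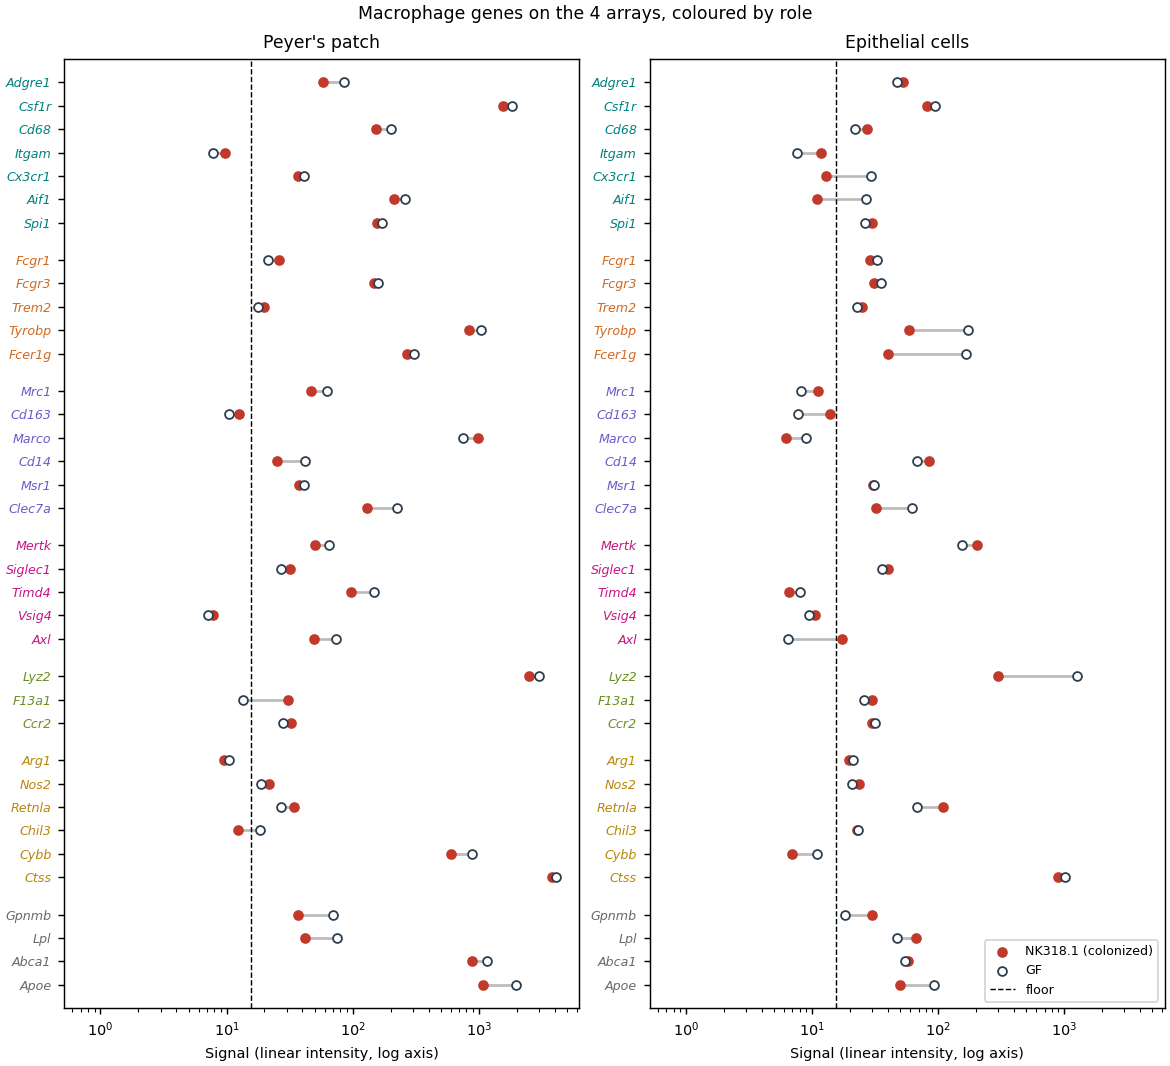
Signal of each of the 36 macrophage genes on the 4 arrays (linear intensity on a log axis), with Peyer's patch on the left and epithelial cells on the right. Filled red points are NK318.1 mice, open points GF mice, the grey line joins them, the dashed line is the floor of 15.5, and gene names are coloured by role. Cd163, Itgam and Vsig4 lie left of the floor on every array, and the pairs of points lie close together in Peyer's patch, whereas Lyz2, Fcer1g and Tyrobp are spread apart in epithelial cells.

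The first comparison asked in which tissue the macrophage genes had their signal. In NK318.1 mice, 18 of 33 measured members were at least 2-fold higher in Peyer's patch than in epithelial cells, a limit that 16.8% of all genes passed, and 3 were at least 2-fold lower, against 18.4%. In GF mice the counts were 17 of 33 higher (18.5% of all measured genes) and 2 lower (16.0%). The median log2 ratio of the members was 1.52 in NK318.1 and 1.25 in GF mice, whereas that of all genes was −0.11 and −0.038. The same 16 genes were at least 2-fold higher in Peyer's patch in both groups of mice, namely Csf1r, Cd68, Mrc1, Marco, Fcgr3, Lyz2, Aif1, Clec7a, Timd4, Tyrobp, Spi1, Cybb, Abca1, Axl, Apoe and Ctss.

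Of these, 6 were at least 8-fold higher in Peyer's patch in both groups of mice. Marco, a scavenger receptor that binds bacteria, had 986 in NK318.1 and 746 in GF Peyer's patch and lay under the floor in epithelial cells, so it was at least 63.6-fold and at least 48.1-fold higher. Cybb, which encodes the membrane subunit of the phagocyte oxidase, had 603 and 886 in the same order and also lay under the floor in epithelial cells, which gives at least 38.9-fold and at least 57.1-fold. Csf1r had 1557 in NK318.1 Peyer's patch and 82.1 in NK318.1 epithelial cells, a 19.0-fold difference, and 19.4-fold in GF mice. A dimmer probe set of Cybb reached 15.9 in NK318.1 epithelial cells, just over the floor. The cholesterol exporter gene Abca1 was 15.4-fold higher in Peyer's patch in NK318.1 mice and 21.1-fold in GF mice. Apoe, which encodes the lipid carrier apolipoprotein E, was 21.6-fold and 21.2-fold higher. Aif1, the calcium-binding protein Iba1 of macrophages and microglia, was at least 13.7-fold higher in NK318.1 and 9.7-fold higher in GF mice.

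Other members had more signal in epithelial cells, or exceeded them in Peyer's patch by less than 2-fold. Mertk, a receptor for dying cells, had 50.2 in NK318.1 Peyer's patch against 204 in NK318.1 epithelial cells, and 64.8 in GF Peyer's patch against 155 in GF epithelial cells. Retnla, a secreted product of macrophages stimulated by interleukin-4, had 34.5 against 110 in NK318.1 mice and 27.1 against 68.0 in GF mice. Both were at least 2-fold lower in Peyer's patch in each group of mice. Cd14, the co-receptor for bacterial lipopolysaccharide, had 25.1 in Peyer's patch against 85.4 in epithelial cells of NK318.1 mice (log2 ratio −1.77), and 42.2 against 68.2 in GF mice (−0.69). All 3 genes had more signal in epithelial cells in both groups of mice. Adgre1, the classical macrophage antigen, had 58.6 in Peyer's patch and 52.7 in epithelial cells of NK318.1 mice, and 85.5 and 47.1 in GF mice. It was nearly level between the tissues in NK318.1 mice (log2 ratio 0.15) and below 2-fold in GF mice (0.86).

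A further 3 genes passed 2-fold in 1 group of mice only. Gpnmb, a lysosomal glycoprotein of lipid-laden macrophages, had a log2 ratio of 0.30 in NK318.1 and 1.93 in GF mice. Fcer1g had 2.73 and 0.88, and the fractalkine receptor gene Cx3cr1 had a bound of 1.25 and a value of 0.50. The remaining measured members, which were Msr1, Ccr2, F13a1, Nos2, Fcgr1, Siglec1, Arg1, Trem2, Chil3 and Lpl, lay between −0.73 and 0.68 in both groups of mice once floored. Of these, Arg1 in both groups, Chil3 in NK318.1 mice and F13a1 in GF mice are bounds. Without the floor Arg1 had a log2 ratio of −1.02 in NK318.1 and −1.03 in GF mice, Chil3 had −0.89 in NK318.1 mice and F13a1 had −0.93 in GF mice. Cd163, Itgam and Vsig4 lay under the floor on all 4 arrays. They encode a hemoglobin scavenger receptor, the CD11b integrin chain and a complement receptor, and had no measured level in either tissue. Other probe sets of a gene could give other tissue ratios. In the 7 members with several measured probe sets, the log2 ratio differed between them by a median range of 1.74 in NK318.1 and 1.80 in GF mice.

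**Figure D2:**
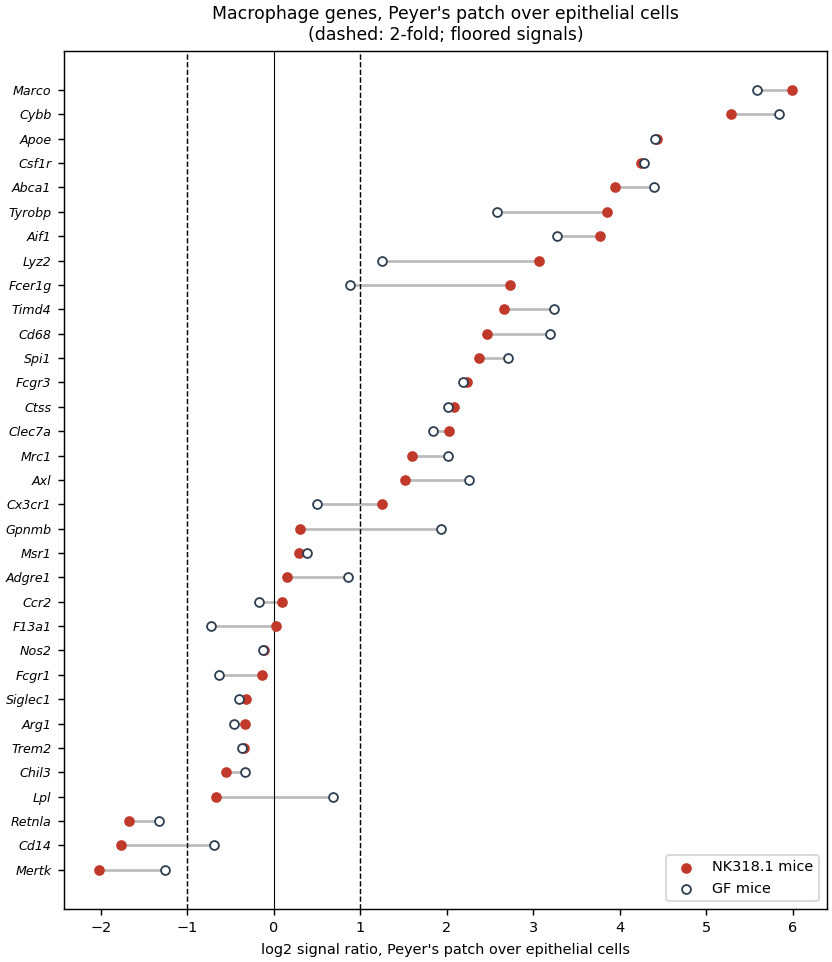
Log2 signal ratio of Peyer's patch over epithelial cells for the 33 measured macrophage genes, ordered by the ratio in NK318.1 mice (filled red points), with GF mice as open points. Signals were floored before the ratio, and dashed lines mark 2-fold. Marco and Cybb stand at the top in both groups of mice, Mertk, Cd14 and Retnla at the bottom in NK318.1 mice, and the grey lines are longest for Fcer1g, Lyz2 and Gpnmb.

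The DNA just before the start of these genes is shown for those at least 8-fold higher in Peyer's patch in both groups of mice, because they are the members whose signal was most clearly tied to 1 tissue, and for Lyz2, which had the lowest ratio in epithelial cells. Spi1, itself a member, encodes PU.1, the ETS-family factor required for macrophage development, whose sites are built around GAGGAA. The RefSeq sequences of build GRCm38.p6 cover 26 of the 36 members, and each window holds the 250 bases before the start. Csf1r was without a window. The windows are Marco at chr1:120505025-120505274, Aif1 at chr17:35176053-35176302, Apoe at chr7:19699189-19699438, Cybb at chrX:9469325-9469574, Abca1 at chr4:53159896-53160145 and Lyz2 at chr10:117282273-117282522, all on the minus strand and written 5′ to 3′ along the gene. Capitals mark GAGGAA on either strand, as well as a second core of the ETS family, GGAAGT. The last base is the one before the start.
Marco: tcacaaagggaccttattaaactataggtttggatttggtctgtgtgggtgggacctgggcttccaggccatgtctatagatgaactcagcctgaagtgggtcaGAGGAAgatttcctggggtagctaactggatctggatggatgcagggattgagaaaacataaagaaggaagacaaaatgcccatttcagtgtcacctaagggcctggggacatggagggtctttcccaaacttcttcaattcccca
Aif1: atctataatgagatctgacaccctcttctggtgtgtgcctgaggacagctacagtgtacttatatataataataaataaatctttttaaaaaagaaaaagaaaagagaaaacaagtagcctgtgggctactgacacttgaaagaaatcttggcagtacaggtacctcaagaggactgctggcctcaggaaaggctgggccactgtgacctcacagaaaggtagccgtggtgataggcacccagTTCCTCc
Apoe: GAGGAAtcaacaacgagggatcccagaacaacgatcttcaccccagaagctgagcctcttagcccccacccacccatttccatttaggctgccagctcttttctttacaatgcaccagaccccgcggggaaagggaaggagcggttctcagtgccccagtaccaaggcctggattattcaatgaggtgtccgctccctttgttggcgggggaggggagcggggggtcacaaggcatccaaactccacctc
Cybb: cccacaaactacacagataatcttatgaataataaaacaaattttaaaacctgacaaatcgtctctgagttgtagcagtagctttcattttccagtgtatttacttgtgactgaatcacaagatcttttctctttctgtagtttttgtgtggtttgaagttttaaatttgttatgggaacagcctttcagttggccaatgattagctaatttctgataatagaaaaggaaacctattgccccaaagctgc
Abca1: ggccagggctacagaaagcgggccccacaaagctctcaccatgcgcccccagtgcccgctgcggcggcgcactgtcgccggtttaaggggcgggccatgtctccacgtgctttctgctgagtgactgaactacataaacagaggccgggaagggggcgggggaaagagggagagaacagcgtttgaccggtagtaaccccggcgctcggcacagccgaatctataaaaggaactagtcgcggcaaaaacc
Lyz2: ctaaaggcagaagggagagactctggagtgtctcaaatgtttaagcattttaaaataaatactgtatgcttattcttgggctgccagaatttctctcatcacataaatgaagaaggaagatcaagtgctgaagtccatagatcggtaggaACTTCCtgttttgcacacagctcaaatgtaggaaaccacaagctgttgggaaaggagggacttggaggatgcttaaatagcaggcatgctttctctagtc

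Both strands were searched, and the 2 motifs can overlap at their shared letters. In the Marco window GAGGAA stood 146 bases before the start on the gene's own strand. It stood 7 bases before the start of Aif1 on the opposite strand, and at the far end of the Apoe window, 250 bases before the start. The Lyz2 window held GGAAGT on the opposite strand, 100 bases before the start. Cybb and Abca1 had neither motif in their windows, although both genes were at least 8-fold higher in Peyer's patch. Some genes have several windows, 31 for the 26 members, and a gene was counted if any of them held the motif. GAGGAA occurred in 15 of the 26 members (57.7%), including Cd68, Mrc1, Itgam, Fcgr1, Fcgr3, Clec7a and Ctss, and in 25.9% of 27025 genes with a window. GGAAGT occurred in 8 (30.8%), for 7 of them in the first window listed, and in 22.2% of genes. A match of letters is not a measured binding site, and binding was not measured here.

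The second comparison asked whether macrophage genes differed between the Peyer's patch of NK318.1 and of GF mice. With the floor, none of the 32 measured members reached 2-fold in either direction, although for F13a1 the value is only a bound, while 0.149% of 12736 measured genes passed it on the higher side and 0.573% on the lower side. Of the 32, 24 had less signal in NK318.1 mice and 8 had more, whereas 57.2% of all measured genes had less. The median log2 ratio of the members was −0.26, against −0.033 for all genes, whose central 95% ran between −0.60 and 0.41. Without the floor 25 of 36 members lay below 0 (52.3% of all genes), and among the 27 members above 31.0, which is 2 times the floor, 23 did, as did 6072 of 10116 genes. Outside that central range lay Gpnmb, Lpl, Apoe, Clec7a and Cd14 on the lower side and F13a1 on the higher side.

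The genes of lipid handling had the lowest ratios. Gpnmb had 36.9 in NK318.1 and 69.9 in GF Peyer's patch (log2 ratio −0.92, 1.89-fold), and only 0.699% of measured genes had a ratio that low. Lpl, the lipase that frees fatty acids from lipoproteins, had 41.8 and 75.8 (−0.86). Apoe had 1087 in NK318.1 and 1965 in GF mice (−0.85), on signals far above the floor. Abca1 had 891 and 1158 (−0.38). All 4 members of this group lay below 0 (57.2% of all measured genes), with a median of −0.86. The other Gpnmb probe set lay under the floor in Peyer's patch, and the mean over both gives −0.045.

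The lineage genes lay nearer to 0 but ran 1 way. Of 6 measured members 6 lay below 0 (57.2% of all measured genes), with a median of −0.26. Adgre1 had 58.6 in NK318.1 and 85.5 in GF Peyer's patch (log2 ratio −0.54), a ratio at or below which 3.21% of measured genes lay. Cd68, a lysosomal membrane protein of phagocytes, had 152 and 200.5 (−0.40). Csf1r had 1557 and 1835 (−0.24), and its other probe sets gave between −0.37 and −0.054. Aif1 had 212 and 259 (−0.29), Cx3cr1 had 37.0 and 41.5 (−0.17), and Spi1 had 155 and 172 (−0.15). None of these genes had more signal in the colonized pool. Itgam, the remaining lineage gene, was not measured.

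Among scavenger and pattern receptors, Clec7a, the β-glucan receptor Dectin-1, had 131 in NK318.1 and 225 in GF Peyer's patch (log2 ratio −0.78), and Cd14 had 25.1 and 42.2 (−0.75). The mannose receptor gene Mrc1, a marker of the study's flow cytometry, had 46.8 and 62.5 (−0.42). Msr1, scavenger receptor A, had 37.4 and 40.8 (−0.13), and other probe sets gave 0.0 and −0.41. These 4 receptors had less signal in the colonized pool, as did 57.2% of all measured genes. Marco went the other way, with 986 in NK318.1 and 746 in GF mice (0.40), a ratio that 2.61% of measured genes reached. Its other probe set gave −0.023. Cd163 was not measured.

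Of the genes for the uptake of dying cells and for resident macrophages, 3 of 4 measured members lay below 0. Of all measured genes 57.2% did so. Timd4, a phosphatidylserine receptor of long-lived resident macrophages, had 97.8 in NK318.1 and 147 in GF Peyer's patch (log2 ratio −0.59). Axl, a receptor tyrosine kinase for apoptotic cells, had 49.8 and 73.9 (−0.57), and its relative Mertk had 50.2 and 64.8 (−0.37). Siglec1, the sialic acid receptor of sinus macrophages that interferon induces, had 32.1 and 27.3 (0.23), and a second probe set gave 0.28. Vsig4 was not measured.

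Fc receptors and their signalling adaptors differed little. Tyrobp, the adaptor DAP12, had 845 in NK318.1 and 1037 in GF Peyer's patch (log2 ratio −0.30). Fcer1g, the common Fc receptor γ chain, had 268 and 308 (−0.20), and Fcgr3 had 147 and 160 (−0.12). The high-affinity IgG receptor gene Fcgr1 had 26.1 and 21.3 (0.29), and Trem2, a lipid-sensing receptor, had 19.9 and 17.7 (0.17), with a second probe set at −0.014. Fcgr1 and Trem2 lay close to the floor. The group median was −0.12.

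The genes grouped as monocyte-derived did not share a direction. F13a1, the coagulation factor XIII A chain of monocytes and macrophages, had 30.6 in NK318.1 Peyer's patch and 13.5, under the floor, in GF Peyer's patch, so it was at least 1.97-fold higher (log2 ratio 0.98). It had the highest ratio of all members in this tissue, and as a bound it does not show whether the gene differed by more than 2-fold. Without the floor its log2 ratio was 1.18. Ccr2, the chemokine receptor that brings monocytes out of the marrow, had 32.3 and 28.0 (0.21), but another probe set gave −0.30. Lyz2, lysozyme M, had 2496 in NK318.1 and 3017 in GF mice (−0.27). Lyz2 has a close relative in Lyz1, and their probes may share signal.

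Apart from Cybb, the activation genes had weak signals or small ratios. Nos2, the inducible nitric oxide synthase, had 21.7 in NK318.1 and 18.9 in GF Peyer's patch (log2 ratio 0.20). Arg1, the arginase of alternatively activated macrophages, lay under the floor in both pools, at 9.6 and 10.4. Retnla had 34.5 and 27.1 (0.35), and the chitinase-like gene Chil3 lay under the floor in NK318.1 mice at 12.3, against 18.4 in GF mice (−0.24 as a bound). Retnla and Chil3 belong to families of close relatives whose signals on the array may mix. Cybb had 603 in NK318.1 and 886 in GF mice (−0.55), and its other probe sets gave −0.83 and −0.64. Of measured genes, 3.09% had a ratio that low. Ctss, the cathepsin that processes antigen for MHC class II, had 3806 and 4083 (−0.10).

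**Figure D3:**
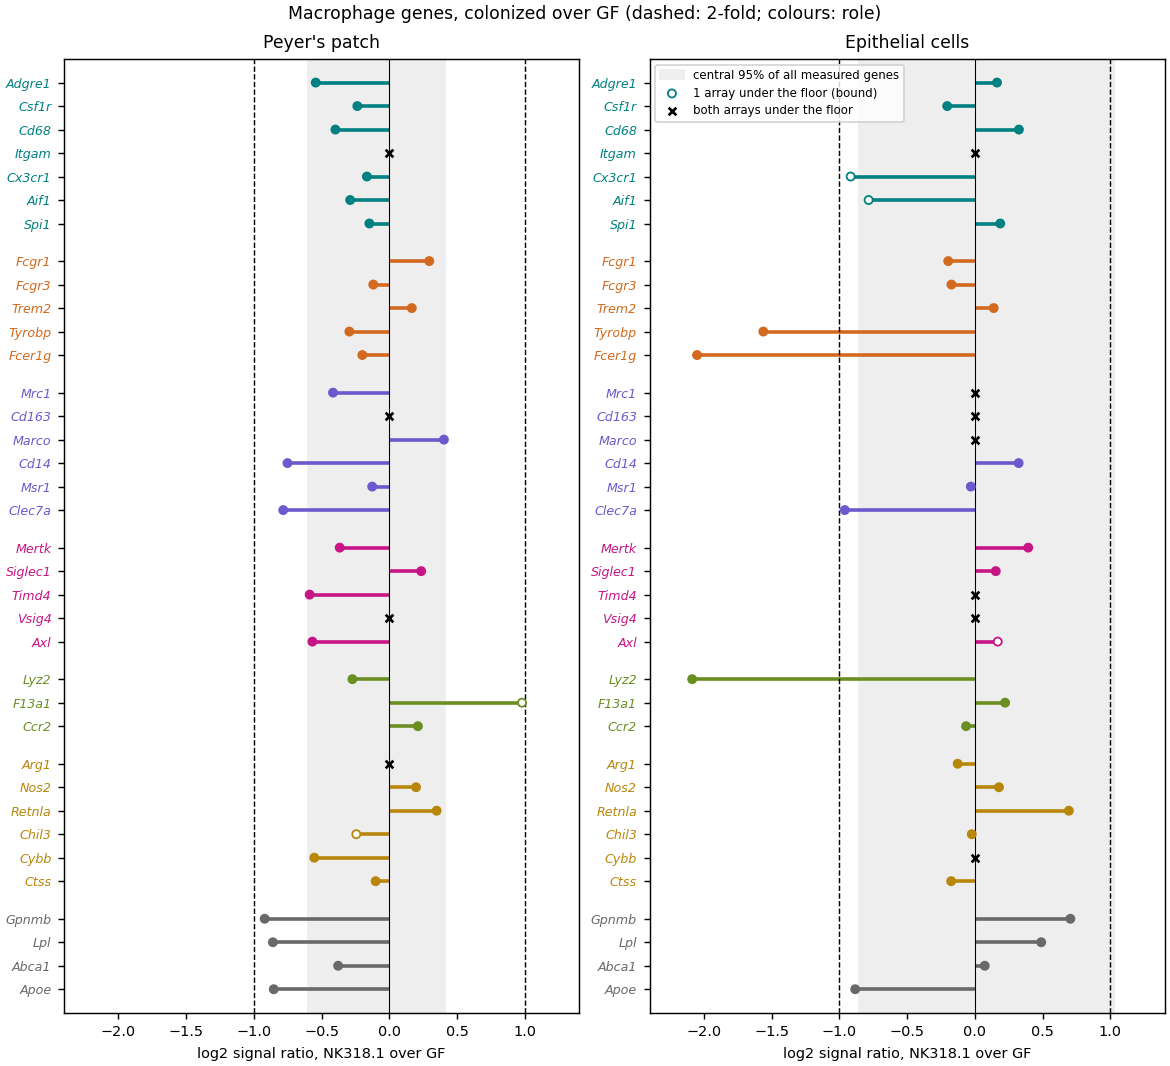
Log2 signal ratio of NK318.1 over GF for each macrophage gene in Peyer's patch (left) and epithelial cells (right), with genes coloured by role. The grey band holds the central 95% of all measured genes, dashed lines mark 2-fold, open points are bounds and crosses mark genes with both arrays under the floor. In Peyer's patch most points lie left of 0 and none passes 2-fold once floored, whereas in epithelial cells Lyz2, Fcer1g and Tyrobp pass 2-fold on the lower side.

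The same question was asked of the epithelial cells. Of 29 measured members, 3 were at least 2-fold lower in NK318.1 mice, where 1.54% of 13874 measured genes were, and 0 were at least 2-fold higher, where 2.63% were. Axl, Aif1 and Cx3cr1 have only bounds here and pass 2-fold without the floor. The members were split evenly around 0, with 15 below and 14 above, and 47.6% of all genes lay below. Their median log2 ratio was −0.023, against 0.019 for all genes, and its sign turned without a floor (0.025) or without the 3 genes past 2-fold (0.106). The shared direction of the Peyer's patch was therefore not seen here, although this contrast of tissues carries no test.

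Lyz2 had 298 in NK318.1 and 1265 in GF epithelial cells (log2 ratio −2.09, 4.25-fold). Fcer1g had 40.3 and 167 (−2.05, 4.14-fold), and Tyrobp had 58.6 and 173 (−1.56, 2.95-fold). Each has 1 probe set, so no second reading exists. Macrophages use all of these genes, but they are not alone in doing so. Fcer1g and Tyrobp also encode adaptors of natural killer cells and of some intraepithelial lymphocytes, and lysozyme is a product of Paneth cells through Lyz1.

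No marker list of natural killer cells or intraepithelial lymphocytes was read. Lists of all leukocytes, T cells and Paneth cells had less signal in NK318.1 epithelial cells. Of all measured genes there, 47.6% had less signal and 1.54% were at least 2-fold lower. The epithelial markers had less too, in 13 of 15, with a summed signal of 52901 in NK318.1 and 66532 in GF epithelial cells. None of these 15 was at least 2-fold lower. Of 9 all-leukocyte markers, 8 had less signal in NK318.1 epithelial cells and 6 were at least 2-fold lower, with a summed signal of 366 in NK318.1 and 1060 in GF epithelial cells. Ptprc, the leukocyte antigen CD45, had 23.1 in NK318.1 against 271 in GF epithelial cells (log2 ratio −3.55). Of 7 Paneth cell markers on the array, 6 were at least 2-fold lower, with a summed signal of 17231 against 36835. Lyz1 had 8249 in NK318.1 and 13550 in GF epithelial cells (−0.72), and its other probe sets gave −1.08 and −1.10. No all-leukocyte or Paneth marker on the array lay under the floor in either epithelial pool. Of 15 measured T cell markers, 12 had less signal, with a summed signal of 742.5 against 1082, and 7 of 16 on the array lay under the floor in NK318.1 and 1 in GF epithelial cells. B cell markers had less in 6 of 11 measured genes, but a summed signal of 964 in NK318.1 and 779 in GF epithelial cells. Monocyte and neutrophil markers had less in 7 of 12, with sums of 7799 and 9602, or 593 and 562 without Plac8. Dendritic cell markers had less in 10 of 17, with 3329 and 3947. The part of any of these cells in the ratios of Lyz2, Fcer1g and Tyrobp was not tested.

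The other measured members stayed below 2-fold in epithelial cells once floored, with ratios in both directions. Csf1r had 82.1 in NK318.1 and 94.6 in GF epithelial cells (log2 ratio −0.20), but its other probe sets gave −0.0049 and 0.23. Adgre1 had 52.7 and 47.1 (0.16), Cd68 had 27.6 and 22.0 (0.32) and Spi1 had 29.9 and 26.3 (0.19). The 6 measured lineage genes were split, with 3 above 0 and 3 below, and those below were Csf1r, Aif1 and Cx3cr1. Clec7a had 32.2 in NK318.1 and 62.6 in GF mice (−0.96), and Apoe had 50.3 and 92.7 (−0.88). Aif1 lay under the floor in NK318.1 mice at 11.0, against 26.7 in GF mice, and was at least 1.72-fold lower. Cx3cr1 likewise had 12.9 and 29.3, at least 1.89-fold lower.

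The highest ratios in epithelial cells were those of Gpnmb and Retnla. Gpnmb had 29.9 in NK318.1 and 18.4 in GF epithelial cells (log2 ratio 0.70), and Retnla had 110 and 68.0 (0.69). Lpl had 66.3 and 47.2 (0.49), Mertk had 204 and 155 (0.39) and Cd14 had 85.4 and 68.2 (0.32). The remaining measured members, Fcgr1, Fcgr3, Msr1, Siglec1, F13a1, Ccr2, Arg1, Nos2, Chil3, Trem2, Abca1 and Ctss, lay between −0.20 and 0.22. Other probe sets gave 0.47 for Siglec1, −0.25 for Trem2, and −0.22 and 0.13 for Msr1. Axl had 17.4 in NK318.1 epithelial cells and 6.5, under the floor, in GF epithelial cells, which gives a bound of 0.17 and a log2 ratio of 1.43 without the floor. By the probe sets used here, Mrc1, Marco, Timd4 and Cybb were measured in Peyer's patch only, and the dimmer Cybb probe set just over the floor gave a bound of 0.035.

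Of the 28 members measured in both tissues, 12 had less signal in NK318.1 mice in both, which were Csf1r, Cx3cr1, Fcgr3, Lyz2, Aif1, Msr1, Clec7a, Chil3, Tyrobp, Fcer1g, Apoe and Ctss. A further 5 had more in both (Siglec1, F13a1, Nos2, Retnla and Trem2), of which Trem2 had less in both by its second probe set. In 9 the ratio was below 0 in Peyer's patch and above 0 in epithelial cells, and Adgre1, Cd68, Mertk, Cd14, Gpnmb, Lpl, Spi1, Abca1 and Axl made up this group. Fcgr1 and Ccr2 showed the opposite. Clec7a and Apoe were lower by similar amounts in both tissues. For genes with several measured probe sets, the ratio differed between them by a median range of 0.22 in Peyer's patch over all genes. In epithelial cells this range was 0.40. Among the members it was 0.315 in Peyer's patch (7 members) and 0.37 in epithelial cells (4 members). All probe sets shared a sign in 3 of these 7 members and in 1 of these 4. Small ratios of either sign therefore have little weight. The median log2 ratio of the members in Peyer's patch, −0.26, is itself smaller in size than their range there.

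A list of 44 other macrophage genes, of which 41 were measured in Peyer's patch, behaved much like the members there. In Peyer's patch 34 of 41 had less signal in NK318.1 mice (57.2% of all measured genes), none passed 2-fold, and the median log2 ratio was −0.26. The lowest were Lyve1, a hyaluronan receptor of perivascular macrophages and lymph vessels (229 in NK318.1 and 446 in GF Peyer's patch, −0.96, and −0.67 by another probe set), the cathepsin gene Ctsl (264 and 454, −0.78) and the pore-forming Mpeg1 (820 and 1364, −0.73). The highest was the oxysterol receptor gene Nr1h3 (46.3 and 36.1, 0.36), followed by the lipid transfer protein gene Pltp (0.14, but −0.38 by another probe set) and the myeloid factor gene Cebpa (0.099). In epithelial cells 23 of 39 had less signal (47.6% of all measured genes) and the median was −0.11. There Ms4a7 (−2.05), Maf (−1.41) and Itgb2 (−1.33) were at least 2-fold lower, and the iron exporter gene Slc40a1 (1.20, and 1.27 by another probe set) was at least 2-fold higher. Other probe sets of Maf gave between −1.18 and −0.30. Maf and Itgb2 are also genes of lymphocytes.

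Of the factors that sustain or attract macrophages, 18 of 23 were measured in Peyer's patch. The 2 lowest values were those of receptor genes. Csf2ra and Csf2rb, the chains of the receptor for the growth factor GM-CSF, had 55.3 and 312 in NK318.1 Peyer's patch against 123 and 671 in GF Peyer's patch (log2 ratios −1.15 and −1.10). Both were at least 2-fold lower by these probe sets, as were 0.573% of all measured genes. The second Csf2rb probe set gave −1.37, but that of Csf2ra gave 0.35. Next lowest was the chemokine gene Ccl8, with 28.6 in NK318.1 and 48.2 in GF mice (−0.75). Tgfb1, which encodes a tolerance-promoting cytokine, was highest with 88.6 in NK318.1 and 61.6 in GF mice (0.52), but its second probe set gave −0.029. Il13 (0.44, a bound) and Tnf (0.27) followed. Csf1, the ligand of CSF1R, had 69.8 and 69.6 in Peyer's patch (0.0046), and its other probe sets gave between 0.028 and 0.33. In epithelial cells none of 16 measured factors passed 2-fold, where 1.54% of all measured genes were lower and 2.63% higher by that limit. Il10, Il6, Ccl7 and Ccl12 lay under the floor on every array, so their levels could not be compared.

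The proteins by which the study gated macrophages were also looked at as a set. The set held 11 genes, of which 8 were on the array, and Ly6g, Ly6c1 and Ly6c2 had no probe set that names 1 gene. Itgam and Il10 lay under the floor on every array. All 6 genes of the set that were measured in Peyer's patch lay below 0 in NK318.1 mice, as did 57.2% of all measured genes. The median log2 ratio of the 6 was −0.33. Besides Adgre1 and Mrc1 the 6 were the MHC class II genes H2-Aa (6867 in NK318.1 and 7600 in GF Peyer's patch, −0.15, with other probe sets between −0.41 and −0.11), H2-Ab1 (−0.17, with others at −0.35 and −0.33) and H2-Eb1 (−0.24), and the CD11c gene Itgax (65.2 and 93.9, −0.53). In epithelial cells 3 of 5 measured genes lay above 0 and the median was 0.012. B cells and dendritic cells also carry MHC class II, and dendritic cells carry CD11c. By flow cytometry, the paper reports that macrophages gated on MHC class II and the Adgre1 antigen accumulated in Peyer's patch of NK318.1-colonized GF mice. The share of cells gated by protein and the RNA signal of unsorted tissue are unlike measures. Whether the ratios given here bear on that result was not tested.

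Lists of other cell types were read beside the direction in Peyer's patch, where 57.2% of all measured genes lay below 0. Dendritic cell markers lay below 0 in 17 of 19 measured genes (median log2 ratio −0.29), with Flt3, the receptor for their growth factor, lowest at −1.09 and the co-stimulator gene Cd86 highest at 0.52 (0.073 by another probe set). Their summed signal was 26487 in NK318.1 and 30959 in GF Peyer's patch, most of it from MHC class II genes and Cd74, which B cells share, and 4292 and 5820 without them. Monocyte and neutrophil markers lay below 0 in 7 of 10 (median −0.30), with a summed signal of 1698 and 2605, most of it from Plac8, and 301 and 387 without it. Only 4 of these 10 exceeded 2 times the floor in either pool, and all 4 lay below 0. B cell markers lay below 0 in 12 of 13 (median −0.14), with 24958 and 26920. T cell markers went the other way, above 0 in 15 of 16 (median 0.23), with 11415 and 9757. All-leukocyte markers lay above 0 in 8 of 9 (median 0.057), with 31429 and 29955. The summed signal of the 36 macrophage genes was 14067 in NK318.1 and 16963 in GF Peyer's patch. The largest signals in that sum were those of Ctss (3806 and 4083) and Lyz2 (2496 and 3017). Xcr1 of the dendritic cell list lay under the floor in NK318.1 Peyer's patch, as did 4 of 14 monocyte and neutrophil markers in each pool. The part of a different mixture of cells in the macrophage ratios was not tested.

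**Figure D4:**
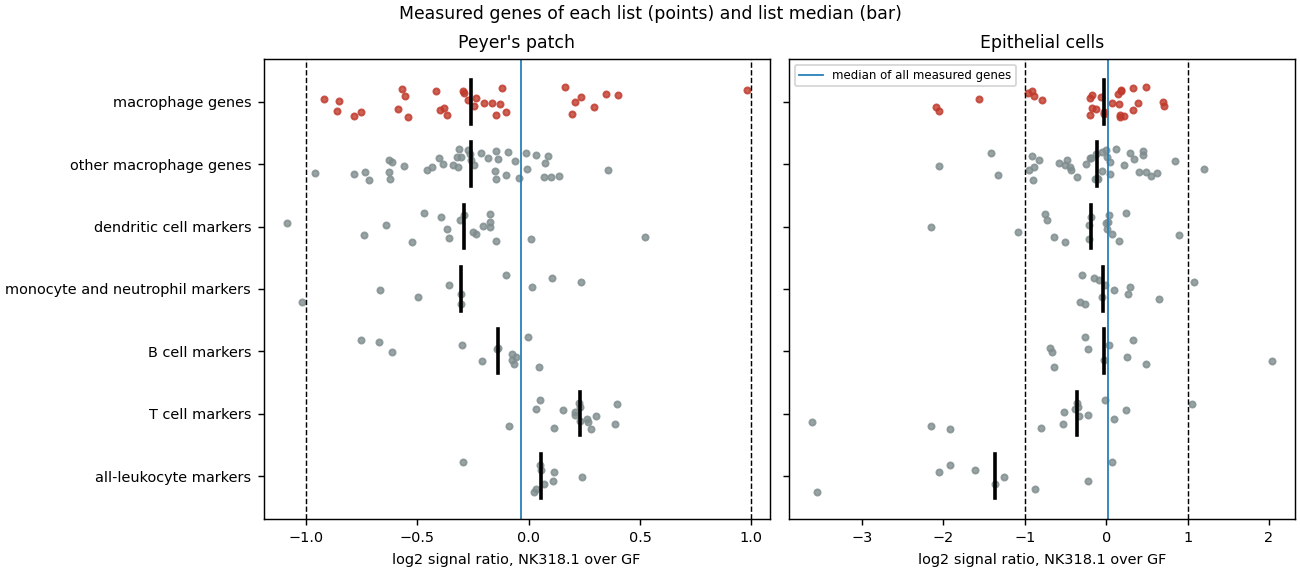
Log2 signal ratio of NK318.1 over GF for the measured genes of 7 lists (points) with the list median (black bar), in Peyer's patch (left) and epithelial cells (right). The blue line is the median of all measured genes and dashed lines mark 2-fold. In Peyer's patch the medians of the macrophage, dendritic cell and monocyte lists lie left of the blue line and that of T cells right of it, and in epithelial cells the all-leukocyte list lies furthest left.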

How the data were processed

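RNA of Peyer's patch cells and intestinal epithelial cells of NK318.1 and GF mice was hybridized to Affymetrix 3′ arrays, 1 array per tissue and group. The authors used MAS5 and deposited 1 linear intensity for each probe set. No MAS5 version is stated in any source used here, and limma is named in the study's methods.

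The intensity was used without further scaling, and control probe sets were left out of the ratios. Of the probe sets used, 34945 named 1 gene, 932 named several and were left out, and 9160 named none. Symbols came from the platform annotation and were updated through the Entrez gene ID. For a gene with several probe sets, the one with the highest average log2 intensity on the 4 arrays stood for it. The 40th percentile of each array was taken and the median of these was the floor, and log2 ratios were taken after flooring. Since each group had 1 array, no p-value or error could be computed, and the number of arrays limits the precision.

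The members and lists were chosen with earlier results of these data known. All members may be named. Values on every array follow a rule that takes members past 2-fold, the 6 highest and 6 lowest ratios of a tissue and the flow cytometry markers, and they are also given for other members to describe each role. Other genes named are the 3 highest and 3 lowest of a list, the flow cytometry markers, Lyz1, Ptprc and the sex-linked genes. Csf1, Plac8, Cd74 and the genes listed as under the floor were added after their values were seen, as were the summed signals without Plac8 or without MHC class II genes and Cd74.

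Alternatives were other scalings, floors and limits, the mean over probe sets and shorter member lists. The procedure was tested on simulated data. Motifs were searched in RefSeq promoter windows. Python 3.11.15, numpy 2.4.6, pandas 2.3.3 and matplotlib 3.10.9 were used.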

Additional observations from a re-analysis of the deposited data

Results flagged for a closer look

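Both genes below had opposite directions in the 2 tissues, by more than the median range between probe sets of 1 gene in each tissue. The log2 ratio of NK318.1 over GF of Gpnmb was −0.92 in Peyer's patch and 0.705 in epithelial cells, on 1 array per group. That of Lpl was −0.86 in Peyer's patch and 0.49 in epithelial cells. For neither gene was this difference tested. The other probe set of Gpnmb lay under the floor in Peyer's patch, and averaging the 2 probe sets gave −0.0445 there.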

How the results depend on the processing

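The median log2 ratio of the members in Peyer's patch stayed below 0, between −0.331 and −0.218, under every alternative that was run. That in epithelial cells (−0.023) was 0.0728 with a floor at the 25th percentile, 0.025 with none and 0.106 without Lyz2, Fcer1g and Tyrobp, so it has no settled sign. No other median of the members changed direction. Ratios were rerun singly for only some of the members. Small ratios can change sign with the probe set used, as those of Trem2 did. The median of all genes in epithelial cells (0.019) was −0.015 after quantile normalization, and that of the tissue ratio in GF mice (−0.038) was 0.107 with a floor at the 60th percentile. Median log2 ratios moved by less than the range between probe sets in 49 of 52 cases, and member counts stayed within 1.5 times in 108 of 130. In the Peyer's patch of NK318.1 against GF mice, a floor at the 25th percentile, no floor, or a limit of 1.5-fold gave 1 member higher, and the limit of 1.5-fold gave 6 lower. In epithelial cells, the lower floor and no floor each gave 1 member higher and 5 lower, and 1.5-fold gave 2 higher and 7 lower. With a floor at the 60th percentile 7 members lay below 0 in epithelial cells, and 1 was lower in Peyer's patch than in epithelial cells of GF mice. In that comparison of tissues, 1.5-fold gave 5 lower in GF mice, and 4-fold gave 1 lower in NK318.1 and 0 in GF mice. With the 21 core markers alone, 11 members in NK318.1 and 10 in GF mice were at least 2-fold higher in Peyer's patch, 1 was lower in GF mice, 14 lay below 0 in Peyer's patch and 8 in epithelial cells, and 1 was at least 2-fold lower in epithelial cells. The median tissue ratio of GF mice was 1.93 with core markers, 1.93 without interferon-inducible members and 1.97 with members over 2 times the floor. That last setting, and leaving out Lyz2, Fcer1g and Tyrobp, which left 0 members at least 2-fold lower in epithelial cells, were chosen after seeing the data. Over all genes, 1.5-fold gave 118 higher and 349 lower in Peyer's patch, 1292 higher and 943 lower in epithelial cells, and 4-fold gave 4 and 8, and 65 and 29. No floor gave 29 higher in Peyer's patch, and the mean over probe sets 235 higher in epithelial cells. Of single members, F13a1 in Peyer's patch reached 1.18 and Cx3cr1 in epithelial cells −1.18 with the lower floor or none, and Clec7a in epithelial cells −1.09 after quantile normalization. Cd14 in Peyer's patch was −0.18 at the 60th percentile, Cx3cr1 in epithelial cells −0.228 and Gpnmb in Peyer's patch −0.0445 with the mean over probe sets. The cause was not tested. No paired analysis was possible because there was 1 array in each group, and leaving out a replicate was not possible for the same reason. Signals near the floor of 15.5 limit Fcgr1, Trem2, Nos2, Arg1 and Chil3 in particular.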
